A study of Mus musculus with 8 samples.

Results

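Amino acid transporters of the Slc1, Slc3, Slc7, Slc36, Slc38 and Slc43 families were examined in muscle of mice with an inducible knockout of p300 and CBP. Members were chosen by gene symbol alone: any symbol made of Slc, 1 of these 6 family numbers, the letter a and a further number. The arrays measured 43 such genes with 57 probes, out of 20145 named genes, and 31 of the 43 were bright enough to test, out of 12739 genes tested. Of 45 RefSeq symbols that match, Slc36a1os and Slc36a3os had no probe here. A pair of members are not amino acid carriers: Slc7a6os is a neighbour of Slc7a6 on the opposite strand, and Slc43a3 carries purine nucleobases.

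The mice were male C57BL/6, and the tissue was EDL, the extensor digitorum longus of the lower leg, a fast-twitch muscle. The PCKO group (4 mice) had an inducible knockout of both p300 (Ep300) and CBP (Crebbp) restricted to skeletal muscle, although the genotype field names CBP alone. The WT group (4 mice) was wild type. The protocol, given in the same words for both groups, describes tamoxifen by oral gavage over 5 days beginning at 13 to 15 weeks of age, with the mice killed 1 day after the final gavage and fasted for 4 h beforehand. What WT mice received beyond this shared text, and which promoter drives the recombinase, are not given in the sources used here. p300 and CBP are closely related acetyltransferases that act as coactivators of transcription.

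Muscle is the body's largest store of amino acids, and carriers in the fibre membrane set how fast they enter and leave. System L carriers exchange large neutral amino acids such as leucine, and several need the heavy chain Slc3a2 to reach the membrane. Sodium-coupled Slc38 carriers of system A and system N move alanine, glutamine and related amino acids. Inside the cell, leucine, arginine and glutamine act through lysosomal sensors on the kinase complex mTORC1, which controls protein synthesis.

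Each mouse had its own array, and 43.5% to 46.1% of 55681 probes lay well above background. A level here is the log2 processed intensity of a spot with the 75th percentile of its array subtracted, so that 0 is the brightness at that percentile. Levels of different probes cannot be set against each other. Every log2 difference is PCKO minus WT and stands beside its limma standard error (4 mice a group). Adjusted p-values are from limma with Benjamini-Hochberg adjustment over all 12739 genes, and "rose" and "fell" mean an adjusted p under 0.05. Arrays correlated over genes at 0.989 to 0.992 within a group and at 0.911 to 0.925 between groups. The probes of both targeted genes were lower in PCKO muscle, Ep300 by -1.44 ± 0.11 and Crebbp by -0.70 ± 0.11, and whether they lie in the deleted part is not known here. Relative to spike-in probes the differences were -0.77 for Ep300 (adjusted p = 0.023) and -0.03 for Crebbp (adjusted p = 0.95), so in that scaling the Crebbp probe did not pass. Limma p-values relative to the spike-ins, here and below, take in error common to a whole array and are too small.

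Transporters changed in both directions in PCKO muscle, some by a large factor. In PCKO muscle 9 of 31 tested members rose, 10 fell and 12 did not pass. Slc7a4, Slc38a1, Slc7a5, Slc3a2 and Slc36a4 rose by 2-fold or more, while Slc38a3, Slc7a2, Slc38a4, Slc43a1 and Slc38a2 fell by 2-fold or more. The share of members called (61.3%) stood beside 71% of all genes tested, with 38.3% of all genes higher and 32.7% lower. In 18 of 31 members the 4 PCKO values lay wholly on 1 side of the 4 WT values, against 65.8% of all genes. Neither share sets the transporters apart from the rest of the array. The median log2 difference of the members was -0.22, beside 0.06 for all genes tested.

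**Figure D1:**
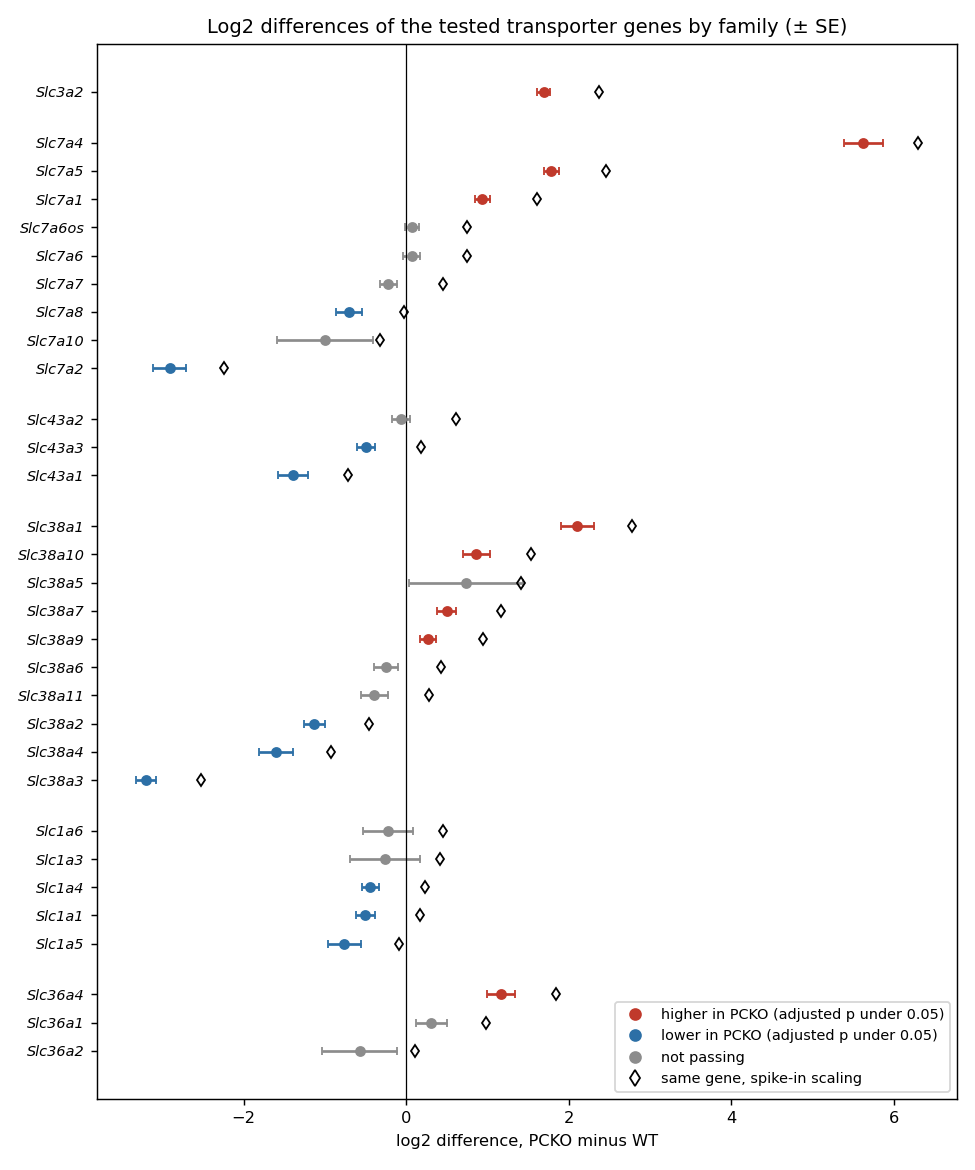
Log2 difference of each of the 31 tested transporter genes, PCKO minus WT, with bars for the limma standard error, grouped by family; red and blue points passed (higher, lower), grey points did not, and open diamonds give the same gene relative to the spike-ins. The differences run between -3.20 (Slc38a3) and 5.62 (Slc7a4), with members of the Slc38 and Slc7 families at both ends.

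**Figure D2:**
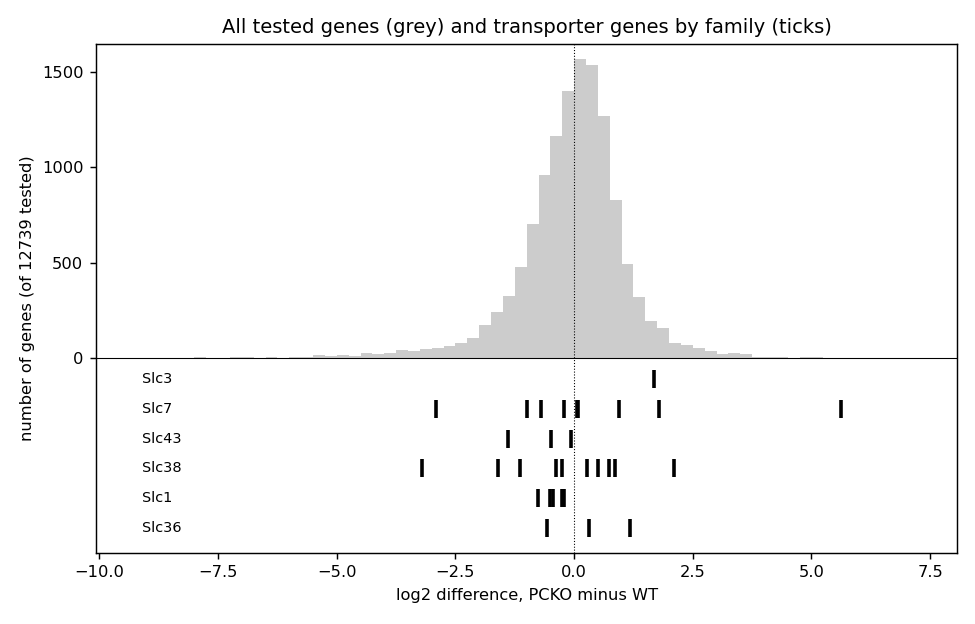
Histogram of the log2 differences, PCKO minus WT, of all 12739 genes tested (vertical axis, number of genes), with ticks below it for the 31 tested transporters by family. The members spread over both sides of 0, with a median of -0.22 against 0.06 for all genes.

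Directions depend on what the arrays are scaled to. Relative to 7 spike-in probes, the 75th percentile stood 0.68 higher in PCKO mice (-2.80 ± 0.34 in PCKO and -3.48 ± 0.30 in WT, SD, n = 4 each, two-sided exact permutation test, p = 0.029, the smallest this design allows). Centred on those spike-ins, the median of all genes moved to 0.73, and 84.9% of the calls were higher in PCKO, against 53.9% with the percentile scaling. The transporters then gave 13 higher and 4 lower, and the 4 were Slc38a3, Slc38a4, Slc43a1 and Slc7a2. The 4 members that did not pass with the percentile scaling and did here, all higher in PCKO, were Slc36a1 (0.98), Slc38a5 (1.41), Slc7a6 (0.75) and Slc7a6os (0.75). Calls in the spike-in scaling rest on p-values that are too small, since they take in error common to a whole array. Each transporter also had the same standard error there (0.31), so its own spread did not enter the p-value. Slc38a5, for example, had a standard error of 0.70 with the percentile scaling. All differences given here are therefore relative to the bulk of genes on the array. The call and direction of 9 of the 19 called members were the same in every setting run that gave a value: Slc38a1, Slc3a2, Slc7a1, Slc7a4 and Slc7a5 higher, and Slc38a3, Slc38a4, Slc43a1 and Slc7a2 lower. Slc7a4, Slc38a3, Slc38a4 and Slc43a1 had no value in the deposited series table. Slc7a4 and Slc7a2 had none with the filter that asks for signal well above background on all 8 arrays.

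The RNA came from whole muscle, in which fewer cells of a type and less RNA per cell cannot be told apart. All 12 skeletal fibre markers were well above background on all arrays, and all 12 fell, with a summed level (linear, relative to the 75th percentile) of 2766 to 3199 in PCKO and 8327 to 10340 in WT. Markers of resident cells were also lower in PCKO in this scaling: 8 of 8 fibroblast, 7 of 8 endothelial, 7 of 7 smooth muscle and pericyte and 6 of 7 macrophage genes fell. With spike-in centring 8 fibre and 6 fibroblast markers still fell, while no endothelial or smooth muscle marker did. With quantile normalization 8 of the 12 fibre markers fell and 1 rose, and with normexp background correction 10 fell. Of the other lists in the percentile scaling, 3 of 4 satellite cell, 2 of 7 Schwann cell, 1 of 6 erythroid and 0 of 3 neutrophil markers fell. In that scaling 1 Schwann cell marker rose. Several transporters are made by those cells too, and the part of these shifts in the transporter results was not tested.

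Slc3a2 and its light chains come first, since the heavy chain is shared. Slc3a2, also called CD98 heavy chain, is a glycoprotein that carries light chains of the Slc7 family to the plasma membrane. Its level was 5.82, 5.66, 5.74 and 5.73 in PCKO mice 1 to 4, against 4.11, 4.10, 3.87 and 4.11 in WT mice 1 to 4. The groups did not overlap, and WT mouse 3 was the lowest of all. The difference was 1.69 ± 0.08, or 3.23-fold higher in PCKO (adjusted p = 4.1e-07). Slc3a1, the heavy chain of kidney and gut, was not well above background on any array.

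The promoter window of Slc3a2 is shown because it is a rising gene whose sequence could be read. Windows are from RefSeq on GRCm38.p6, hold 250 bases before the annotated start and 50 from it on, and were available for 23 of the 31 tested members. There was none for Slc1a5, Slc36a2, Slc38a1, Slc38a3, Slc43a3, Slc7a2, Slc7a4 and Slc7a5. Capitals mark matches, on either strand, to the motifs searched. Position 251 is the start. The Slc3a2 window, chr19:8713848-8714147 on the minus strand, held GC boxes at positions 229 and 264.
Slc3a2: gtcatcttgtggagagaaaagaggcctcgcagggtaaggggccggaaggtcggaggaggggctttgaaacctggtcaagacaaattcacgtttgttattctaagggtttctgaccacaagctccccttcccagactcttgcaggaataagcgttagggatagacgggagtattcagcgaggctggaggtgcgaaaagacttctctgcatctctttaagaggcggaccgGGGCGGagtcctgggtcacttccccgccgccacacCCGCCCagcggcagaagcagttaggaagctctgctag

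The letters of 6 motifs were searched on both strands, and a match is a description of letters only. Counts are of genes, and a gene with more than 1 window counted if any of them held the match. CRE (TGACGTCA) was found for 1 of 23 members, Slc38a6, against 3.49% of 10144 tested genes with a window. Its core TGACG, which every full CRE also contains, was in 10 of 23, against 34.5%. CARE (TGATGNAA), the composite C/EBP and ATF element read by ATF4, was in 2 of 23, Slc1a4 and Slc7a7, against 2.74%. The E-box CAGCTG was in 5, against 18.4%, the GC box GGGCGG in 20, against 67.5%, and TATAAA in 4, against 9.46%. A core was in the windows of 2 of 6 members that rose and 3 of 6 that fell.

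Among the light chains, Slc7a5 rose and Slc7a8 fell. Slc7a5 (LAT1) exchanges leucine and other large neutral amino acids. Its level was 0.21, 0.28, 0.43 and 0.29 in PCKO mice 1 to 4, against -1.55, -1.65, -1.37 and -1.37 in WT mice 1 to 4. Every PCKO mouse stood above every WT mouse, and the spread within a group was small. The difference was 1.79 ± 0.09, or 3.45-fold higher in PCKO (adjusted p = 5.5e-07), and 0.97 with normexp background correction. Another Slc7a5 probe was not well above background on any array of either group, so the increase was read from a single probe. The Slc7a5 and Slc3a2 proteins together form the LAT1 exchanger. The RNA signal of both genes was higher in all 4 PCKO mice, and protein was not measured.

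Slc7a8 (LAT2) is the other light chain for large neutral amino acids. Its level was 2.91, 3.17, 2.97 and 3.35 in PCKO mice, against 3.86, 3.73, 4.15 and 3.45 in WT mice. The groups did not overlap, but PCKO mouse 4 and WT mouse 4 were close. The difference was -0.70 ± 0.16 (1.62-fold lower, adjusted p = 0.0040). It was -0.02 relative to the spike-ins, and with normexp (-0.41) it no longer passed.

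The remaining light chains that pair with Slc3a2 did not pass with the percentile scaling. Slc7a6 (y+LAT2), which exchanges cationic for neutral amino acids, differed by 0.07 ± 0.11, and by 0.75 relative to the spike-ins (adjusted p = 0.027). Slc7a7 (y+LAT1), of the same exchange type, differed by -0.22 ± 0.10 (adjusted p = 0.086), and without PCKO mouse 2 it was -0.30 and passed. Slc7a10 (Asc-1), a carrier of small neutral amino acids, differed by -1.0 ± 0.59 (adjusted p = 0.16), with a wide spread inside both groups. Slc7a11, the cystine and glutamate exchanger, was not well above background on any array. Slc7a6os, the neighbour of Slc7a6 that matches by symbol, differed by 0.07 ± 0.09, and by 0.75 relative to the spike-ins (adjusted p = 0.026).

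The cationic amino acid carriers moved in opposite directions. Slc7a1 (CAT1) takes up arginine, lysine and ornithine in most tissues. Its level was 2.73, 2.85, 2.75 and 2.50 in PCKO mice, against 1.66, 1.80, 1.73 and 1.90 in WT mice, without overlap. The difference was 0.94 ± 0.10, or 1.92-fold higher in PCKO (adjusted p = 3.4e-05). Slc7a2 (CAT2), a carrier of the same amino acids, did the reverse. Its level was -3.59, -3.03, -3.53 and -2.94 in PCKO mice, against -0.55, -0.06, -0.13 and -0.71 in WT mice. The difference was -2.91 ± 0.20, or 7.52-fold lower in PCKO (adjusted p = 3.4e-06). The PCKO signal was well above background on 3 of 4 arrays, and normexp gave -1.43.

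The Slc7a1 windows are shown because the gene has more than 1 annotated start. The window chr5:148399855-148400154, minus strand, held the CRE core at positions 67 and 265, an E-box that overlaps the first core at 70, and a GC box at 215. The window chr5:148392766-148393065, minus strand, held a TATA motif at 223.
Slc7a1 upstream start: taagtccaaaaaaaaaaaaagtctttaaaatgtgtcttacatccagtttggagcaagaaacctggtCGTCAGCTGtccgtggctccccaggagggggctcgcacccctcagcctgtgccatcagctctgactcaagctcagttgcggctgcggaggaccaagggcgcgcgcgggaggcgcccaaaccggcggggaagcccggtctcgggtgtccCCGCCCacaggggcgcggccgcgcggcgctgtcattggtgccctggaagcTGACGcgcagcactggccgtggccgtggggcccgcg
Slc7a1 downstream start: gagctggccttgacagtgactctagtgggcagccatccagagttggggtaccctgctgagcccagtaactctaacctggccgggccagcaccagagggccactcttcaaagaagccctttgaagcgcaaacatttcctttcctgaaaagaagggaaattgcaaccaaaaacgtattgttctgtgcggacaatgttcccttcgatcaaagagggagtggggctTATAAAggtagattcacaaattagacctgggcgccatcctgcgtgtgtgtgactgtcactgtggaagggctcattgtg

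Slc7a4 had the greatest log2 difference among the 31 tested members. It resembles the cationic carriers in sequence, and its own substrate is not well established. Its level was 2.47, 2.07, 2.20 and 2.15 in PCKO mice, against -3.04, -2.88, -3.79 and -3.90 in WT mice. All 4 PCKO arrays were far above all 4 WT arrays, and the probe was well above background on only 2 of the WT arrays. The difference was 5.62 ± 0.24, or 49.3-fold higher in PCKO (adjusted p = 1.9e-07), and 3.10 with normexp. With WT arrays below the lowest signal well above background set to that signal, the WT mean was -3.26 in place of -3.40. A second probe for the same transcript was not well above background on any array of either group, so the increase rests on 1 probe.

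The rest of the Slc7 family was dim. Slc7a3 (CAT3) was well above background on 1 WT array and no PCKO array. Slc7a9, the partner of Slc3a1, was not above it on any array, and neither were Slc7a12, Slc7a13, Slc7a14 and Slc7a15. Of 16 Slc7 genes measured, 9 were tested, 3 rose, 2 fell and 4 did not pass.

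**Figure D3:**
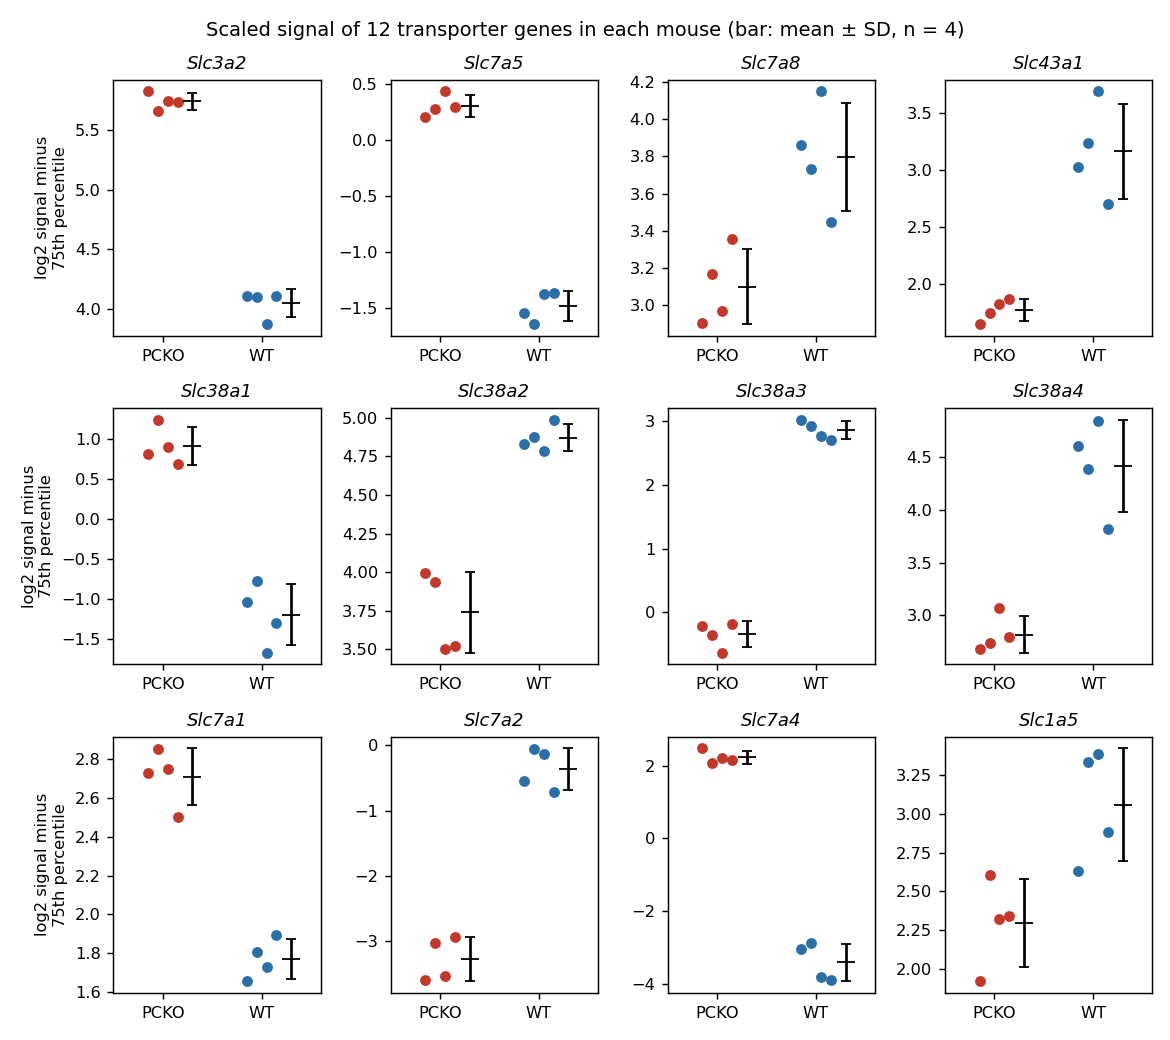
Level of selected transporters in each mouse (log2 signal, scaled to the 75th percentile), with PCKO left of WT in each panel; points are mice and bars are mean ± SD (n = 4). PCKO points for Slc3a2 lie between 5.66 and 5.82, above the WT points at 3.87 to 4.11, and the order is the reverse for Slc38a3.

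Slc43a1 and Slc43a2 carry large neutral amino acids by facilitated diffusion without a heavy chain, and Slc43a1 fell. Slc43a1 (LAT3) had levels of 1.64, 1.74, 1.83 and 1.87 in PCKO mice, against 3.03, 3.23, 3.69 and 2.70 in WT mice. The PCKO mice were close together, and the WT mice spread over about 1 log2 unit above them. The difference was -1.39 ± 0.19, or 2.63-fold lower in PCKO (adjusted p = 1.9e-04). Slc43a2 (LAT4) differed by -0.06 ± 0.11 and did not pass. Slc43a3, the nucleobase carrier, had levels of 2.93, 2.86, 3.03 and 2.74 in PCKO mice, against 3.53, 3.19, 3.54 and 3.28 in WT mice. The groups lay apart, with a difference of -0.50 ± 0.11 (adjusted p = 0.0031) that was 0.18 relative to the spike-ins and no longer passed with normexp (-0.21). In RefSeq order 1 coding gene lies between Slc43a1 and Slc43a3.

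The Slc43a1 window, chr2:84840073-84840372 on the plus strand, is shown for a gene that fell in every setting run that gave a value. It held GC boxes at positions 6 and 169 and TATA motifs at 35 and 50, the last 2 far upstream of the start at 251.
Slc43a1: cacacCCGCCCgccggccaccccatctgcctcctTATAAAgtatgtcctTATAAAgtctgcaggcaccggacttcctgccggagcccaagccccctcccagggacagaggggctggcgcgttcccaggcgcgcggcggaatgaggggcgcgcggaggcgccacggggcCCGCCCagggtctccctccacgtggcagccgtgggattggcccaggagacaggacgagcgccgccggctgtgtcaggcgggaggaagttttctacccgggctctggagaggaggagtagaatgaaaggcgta

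So the genes of system L were split. Slc7a5 and Slc3a2 rose, Slc7a8 and Slc43a1 fell, and Slc43a2 did not pass.

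The Slc38 family, with 10 of 11 genes tested, had 4 genes that rose, 3 that fell and 3 that did not pass, and a median log2 difference of 0.01. Slc38a3 (SNAT3) is a system N carrier of glutamine, histidine and asparagine. Its level was -0.22, -0.35, -0.63 and -0.18 in PCKO mice, against 3.02, 2.93, 2.77 and 2.71 in WT mice. The groups were separated by more than 2 log2 units. The difference was -3.20 ± 0.12, or 9.19-fold lower in PCKO (adjusted p = 1.1e-07), and it was -2.45 with normexp and -2.52 relative to the spike-ins. Slc38a5 (SNAT5), the other system N member tested, differed by 0.74 ± 0.70 (adjusted p = 0.37). It was well above background on 3 PCKO and 2 WT arrays. Without WT mouse 4, the highest of its group, the difference was 1.41 and passed. Without WT mouse 3, the lowest of its group, it was 0.15 (adjusted p = 0.82). With values below the lowest signal well above background set to that signal, the means were -3.10 in PCKO and -3.19 in WT.

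The system A carriers did not move as a group: Slc38a1 rose, and Slc38a2 and Slc38a4 fell. Slc38a1 (SNAT1) had levels of 0.81, 1.24, 0.91 and 0.69 in PCKO mice, against -1.03, -0.77, -1.67 and -1.30 in WT mice. The difference was 2.11 ± 0.20, or 4.31-fold higher in PCKO (adjusted p = 2.1e-05), and 1.36 with normexp. A second probe was well above background on all 4 PCKO arrays and no WT array, at least 2.18-fold higher, and the other probe on no array. For such a bound the dim group is set at the lowest signal well above background wherever its own value is below that.

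Slc38a2 (SNAT2), a carrier of small neutral amino acids whose mRNA is known to respond to amino acid supply, fell. Its level was 4.00, 3.94, 3.50 and 3.52 in PCKO mice, against 4.83, 4.88, 4.79 and 4.99 in WT mice. The WT mice were tightly grouped, all above the PCKO mice. The difference was -1.13 ± 0.13, or 2.19-fold lower in PCKO (adjusted p = 7.3e-05), and relative to the spike-ins it was -0.46 (adjusted p = 0.19). Slc38a4 (SNAT4) had levels of 2.67, 2.73, 3.07 and 2.79 in PCKO mice, against 4.61, 4.39, 4.85 and 3.82 in WT mice. The groups did not overlap, WT mouse 4 being the lowest of its group. The difference was -1.60 ± 0.21, or 3.04-fold lower in PCKO (adjusted p = 1.4e-04). In RefSeq order Slc38a1, Slc38a2 and Slc38a4 follow each other with no coding gene between them, and the first of them rose while the next 2 fell.

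The Slc38a2 window, chr15:96699679-96699978 on the minus strand, is shown because of that gene's known response to amino acids. It held a GC box at position 216 and the CRE core at 224, and no match to the CARE letters. The window holds only 50 bases from the start on, so letters further into the gene were not searched.
Slc38a2: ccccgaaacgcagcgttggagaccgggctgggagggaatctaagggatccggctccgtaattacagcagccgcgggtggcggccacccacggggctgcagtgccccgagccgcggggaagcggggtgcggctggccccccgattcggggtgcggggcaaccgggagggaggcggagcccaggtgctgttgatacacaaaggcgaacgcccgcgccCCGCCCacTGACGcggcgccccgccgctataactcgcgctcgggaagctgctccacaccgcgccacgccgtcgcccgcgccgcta

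Members of the family that act in lysosomes or are less studied changed by less. Slc38a7 (SNAT7), a lysosomal glutamine carrier, rose by 0.50 ± 0.12 (adjusted p = 0.0045), a call that normexp (0.27) did not keep. Slc38a9, the lysosomal arginine sensor that signals to mTORC1, rose by 0.27 ± 0.10 (adjusted p = 0.030), and it no longer passed without PCKO mouse 1, 3 or 4 or WT mouse 2 or 3 (0.23 to 0.28). Its other probes gave 0.33 and 1.05. Slc38a10 rose by 0.86 ± 0.16 (adjusted p = 0.0014), with the probe well above background on 2 WT arrays and a difference of -0.22 with normexp. Slc38a6 (-0.25 ± 0.14) and Slc38a11 (-0.39 ± 0.17, adjusted p = 0.059) did not pass. Slc38a11 did pass without PCKO mouse 3 (-0.54) or WT mouse 2 (-0.48), with normexp (-0.32, adjusted p = 0.045), with the slide row as a block (adjusted p = 0.030) and among probes well above background on all 8 arrays (adjusted p = 0.049). Slc38a6 passed without PCKO mouse 4 (-0.35). Relative to the spike-ins both were above 0 and did not pass. Slc38a8 was not well above background on any array.

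In the Slc1 family 3 of 5 tested genes fell and none rose, and no difference reached 2-fold. Slc1a5 (ASCT2), an exchanger of glutamine and small neutral amino acids, had levels of 1.92, 2.60, 2.32 and 2.34 in PCKO mice, against 2.63, 3.33, 3.39 and 2.88 in WT mice. PCKO mouse 2 and WT mouse 1 were nearly level. The difference was -0.76 ± 0.20, or 1.70-fold lower in PCKO (adjusted p = 0.0082). A second probe gave -0.55 and did not pass (adjusted p = 0.056 over tested probes), and relative to the spike-ins the difference was -0.09.

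Slc1a4 (ASCT1), an exchanger of alanine, serine and cysteine, had levels of 0.79, 1.11, 0.94 and 1.15 in PCKO mice, against 1.52, 1.31, 1.50 and 1.41 in WT mice. The groups were apart, with a difference of -0.44 ± 0.10 (adjusted p = 0.0038). Slc1a1 (EAAC1), a glutamate carrier, had levels of -1.36, -1.68, -1.77 and -1.76 in PCKO mice, against -1.0, -1.31, -1.25 and -1.01 in WT mice. PCKO mouse 1 was close to WT mouse 2, and the difference was -0.50 ± 0.12 (adjusted p = 0.0052). Relative to the spike-ins neither fell, at 0.24 for Slc1a4 and 0.17 for Slc1a1. With normexp Slc1a4 (-0.21) did not pass. The glutamate carriers Slc1a3 (GLAST, -0.26 ± 0.43) and Slc1a6 (EAAT4, -0.22 ± 0.31) did not pass. Slc1a6 did pass with normexp (-0.40, adjusted p = 0.029), while relative to the spike-ins it was 0.45 and did not pass. Slc1a2 (GLT-1) was above background on no array, and Slc1a7 (EAAT5) on 1 WT array.

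The Slc1a4 window, chr11:20332664-20332963 on the minus strand, is shown for its match to the CARE letters at position 247, on the strand opposite to the gene. It also held GC boxes at 100, 184 and 204 and the CRE core at 117.
Slc1a4: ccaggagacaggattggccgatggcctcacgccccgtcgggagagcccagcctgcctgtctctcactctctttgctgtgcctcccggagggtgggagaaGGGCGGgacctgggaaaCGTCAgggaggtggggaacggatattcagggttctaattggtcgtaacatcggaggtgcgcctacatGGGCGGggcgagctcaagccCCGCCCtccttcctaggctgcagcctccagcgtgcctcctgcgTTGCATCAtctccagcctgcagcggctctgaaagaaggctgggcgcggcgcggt

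The proton-coupled Slc36 family showed 1 change among 3 tested genes with the percentile scaling. Slc36a4 (PAT4), a carrier of proline and tryptophan, had levels of -1.61, -2.10, -1.73 and -2.25 in PCKO mice, against -3.26, -2.82, -2.94 and -3.34 in WT mice. All PCKO values were above all WT values. The difference was 1.17 ± 0.17, or 2.25-fold higher in PCKO (adjusted p = 3.3e-04), but with normexp it was -0.0067 (adjusted p = 0.97). Another Slc36a4 probe was not well above background on any array of either group, so the increase was read from a single probe. Slc36a1 (PAT1), a lysosomal carrier of small amino acids, had levels of -3.25, -3.09, -2.65 and -3.24 in PCKO mice, against -3.04, -3.37, -3.82 and -3.23 in WT mice. The groups overlapped, with a difference of 0.31 ± 0.19 (adjusted p = 0.17), which was 0.98 relative to the spike-ins (adjusted p = 0.0033). Slc36a2 (PAT2), a carrier of glycine, alanine and proline, differed by -0.57 ± 0.46, and Slc36a3 was above background on no array.

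Slc36a2, Slc7a10, Slc1a3 and Slc1a5 varied between mice in the order of Adipoq, the fat cell hormone adiponectin. Slc7a10 had levels of -2.31, -0.13, -1.56 and -0.83 in PCKO mice 1 to 4, against -1.42, 0.03, 1.09 and -0.54 in WT mice 1 to 4. Adipoq had levels of 1.01, 3.30, 2.13 and 2.76 in PCKO mice, against 1.90, 3.30, 4.03 and 2.74 in WT mice. In both genes PCKO mouse 2 and WT mouse 3 were highest and mouse 1 of each group was lowest. The identical order within both groups was seen in 4 of 31 transporters (12.9%) and in 36 of all 12739 genes (0.283%). In Slc36a2, Slc1a3 and Slc1a5 the levels of PCKO mice 3 and 4 were nearly equal, so their order there rests on small differences. The order was looked for after the values had been seen, so it is given as a description. Cidec, Plin1 and Retn had this order too, but the fatty acid binding protein Fabp4 did not, being highest in mouse 2 of each group. Of 5 tested fat cell markers 1, Fabp4, fell, and the other 4 did not pass. Their summed level was 142 to 215 in PCKO and 260 to 341 in WT, of which Fabp4 made up 88.0% to 96.8% in every mouse. Without Fabp4 the sum was 5.47 to 24.2 in PCKO and 8.68 to 39.7 in WT, and the groups overlapped. How far fat in the dissected muscle bears on these 4 transporters was not tested.

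**Figure D4:**
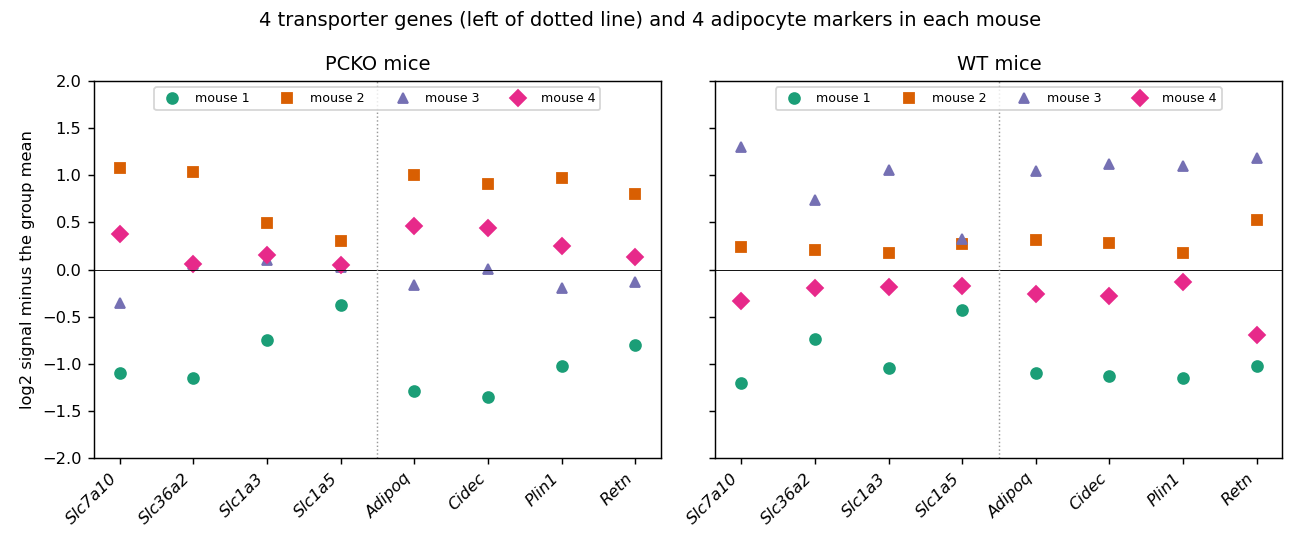
Level of Slc7a10, Slc36a2, Slc1a3 and Slc1a5 and of the fat cell markers Adipoq, Cidec, Plin1 and Retn in each mouse, as the log2 signal minus the mean of that mouse's group, with PCKO mice in the left panel and WT mice in the right one. PCKO mouse 2 and WT mouse 3 are the highest points for these 8 genes, and mouse 1 of each group is the lowest; Fabp4, which had another order, is not drawn.

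Genes that work beside these carriers were read as lists. For comparison, 38.3% of all genes tested were higher in PCKO and 32.7% lower. With spike-in centring 6765 of 12739 genes were higher and 1203 lower. No list was tested against these shares. Of 13 tested amino acid and related solute carriers of other families 5 rose and 7 fell, with a median log2 difference of -0.65, which became 0.03 with spike-in centring (6 higher, 3 lower). Slc6a9 (GLYT1), a glycine carrier, fell by 1.66 ± 0.14. Slc16a10 (TAT1), which lets aromatic amino acids out of cells, fell by 1.40 ± 0.14, and the cation exporter Slc47a1 fell by 1.57 ± 0.25. Among the genes that rose, the lysosomal cystine exporter Ctns differed by 0.87 ± 0.10 and the ergothioneine carrier Slc22a4 by 0.78 ± 0.19. Slc15a2 (PEPT2), a peptide carrier, differed by 4.07 ± 1.07 (adjusted p = 0.0080), with overlapping groups and 2 WT arrays well above background.

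Enzymes that make or use glutamine and glutamate included large changes in both directions: of 14 tested, 7 rose and 6 fell (median 0.23). Glul, glutamine synthetase, had levels of 3.61, 3.61, 3.85 and 3.60 in PCKO mice, against 6.55, 6.64, 6.43 and 5.88 in WT mice. The groups were separated by more than 2 log2 units, with a difference of -2.71 ± 0.16 (6.54-fold lower in PCKO, adjusted p = 1.4e-06). The alanine transaminases Gpt (-2.64 ± 0.16) and Gpt2 (-1.80 ± 0.13) fell as well. Gls2, a glutaminase, was well above background on all PCKO arrays and no WT array, at least 4.18-fold higher in PCKO. Aldh18a1, which starts proline synthesis from glutamate, was likewise at least 3.73-fold higher. Both genes met the filter through the PCKO arrays alone, so no p-value is given, though they count among the genes that rose. Gss, glutathione synthetase, rose by 1.29 ± 0.14. With spike-in centring the list had 8 higher and 3 lower.

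The list of mTORC1 amino acid sensing genes, which holds Slc38a9, had 16 of 38 higher and 8 lower (median 0.18). With spike-in centring it had 27 higher and 0 lower, in a scaling where 6765 of all 12739 genes were higher and 1203 lower. The Rag GTPase genes differed among themselves: Rragb rose by 1.83 ± 0.13 and Rragd fell by 1.08 ± 0.22. In the sestrin family, which includes leucine sensors, Sesn2 (1.14 ± 0.09) and Sesn3 (0.77 ± 0.10) rose and Sesn1 (-0.67 ± 0.16) fell. Of the folliculin partners, Fnip2 rose by 1.03 ± 0.10 and Fnip1 fell by 0.73 ± 0.08. Sesn3 lies outside the rule for named genes and was added after its value was seen.

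The list of the amino acid response, which holds ATF4, its upstream kinase GCN2 (Eif2ak4) with Gcn1 and Eif2s1, and ATF4 target genes, had 10 of 28 higher and 8 lower (median 0.04), and 16 higher and 3 lower with spike-in centring. Atf3, a stress-induced factor, rose by 3.10 ± 0.42, and the mitochondrial folate enzyme Mthfd2 rose by 1.27 ± 0.19. Chac1, which breaks down glutathione and is among the better known ATF4 targets, had levels of 0.89, 1.28, 1.07 and 0.23 in PCKO mice, against 7.29, 7.67, 8.04 and 6.56 in WT mice. The groups were more than 5 log2 units apart, with a difference of -6.52 ± 0.33 (adjusted p = 5.6e-07). Vldlr, a lipoprotein receptor, fell by 2.17 ± 0.12, and the stress gene Nupr1 fell by 1.35 ± 0.22.

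**Figure D5:**
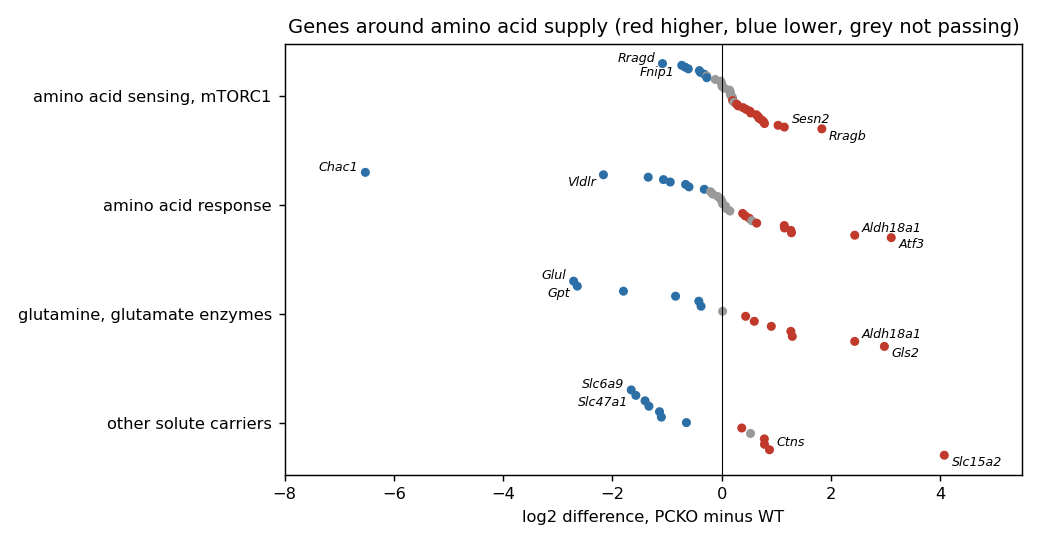
Log2 differences, PCKO minus WT, of the tested genes in the 4 related lists, 1 point per gene, red where higher, blue where lower and grey where not passing. The points lie on both sides of 0 in every list, and the medians are -0.65 for other solute carriers, 0.18 for amino acid sensing, 0.04 for the amino acid response and 0.23 for glutamine and glutamate enzymes.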

How the data were processed

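RNA from the EDL of 4 PCKO and 4 WT mice was hybridised to single-colour Agilent arrays, all on 1 slide and scanned on 1 day. Each of the slide's 2 rows held 2 arrays per group. The deposited scanner files hold spot intensity values, background-subtracted, per the file headers, by version 10.7.3.1 of Feature Extraction and not normalized between arrays. The deposited series table holds log2 values for 32622 of the 55681 non-control probes. The sources used here do not say how it was made, its centring and background handling stay unknown, and it served only as an alternative.

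Each array's processed intensity was put on the log2 scale and its 75th percentile (control probes left out) subtracted, without control and outlier spots. A probe was tested if well above background on at least 4 of 8 arrays, and a gene took its brightest tested probe. Accessions were named through RefSeq (GRCm38.p6), which gave 26582 probes 1 symbol and left 29099 unnamed. The array design uses another build, so only promoter windows carry coordinates. Probes of related genes were not checked for shared sequence. The test was two-sided, with lmFit and eBayes of limma 3.58.1 (R 4.3.3), a single term for group, Benjamini-Hochberg adjustment and a threshold of 0.05. The fit was tested on simulated data.

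The members and gene lists were chosen with earlier results of these data known. Every member is named. Values per mouse are given for up to 4 members per family with the largest differences past the threshold, for Slc3a2, Slc7a5, Slc7a8, Slc43a1, Slc7a1, Slc38a2, Slc1a5 and Slc36a1, and in other lists up to 3 genes per direction are named. Glul, Chac1, Slc7a10 and Adipoq were given per mouse after their values were seen. Alternatives were quantile normalization, median and spike-in centring, normexp (offset 50, on the median spot signal, since the planned mean signal is not among the columns used here), no filter, a filter on all 8 arrays, outlier spots kept, the mean of probes, an intensity trend, array weights, the series table, blocks for replicate number and slide row, each row alone, and leaving out each mouse. The labels describe separate mice, and the number of arrays limits precision.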

Additional observations from a re-analysis of the deposited data

Results flagged for a closer look

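Each of the 31 tested members was checked for a mouse far from the other 3 of its group with Dixon's test at the 95% level, in 62 groups of 4. Chance gives about 1 in 20 such groups, and 4 were found. Slc38a11 was -1.072 in PCKO mouse 3, with the other PCKO mice between -1.70 and -1.62. Slc38a7 was 0.09631 in PCKO mouse 3, with the others between -0.11 and -0.09. Slc3a2 was 3.872 in WT mouse 3, below the other WT mice at 4.10 to 4.11, and its difference without that mouse was 1.63, the lowest when any 1 mouse was left out. Slc7a7 was 1.263 in WT mouse 2, above the others at 1.07 to 1.09.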

How the results depend on the processing

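Relative to the spike-ins, whose p-values take in error common to a whole array and are too small, transporters lower in PCKO numbered 4. Directions turned for Slc1a1 (0.17), Slc1a3 (0.42), Slc1a4 (0.24), Slc1a6 (0.45), Slc36a2 (0.11), Slc38a11 (0.28), Slc38a6 (0.43), Slc43a2 (0.61), Slc43a3 (0.18) and Slc7a7 (0.45). With normexp, which gave 6 higher and 9 lower, they turned for Slc36a1 (-0.27), Slc36a4 (-0.0067), Slc38a10 (-0.22), Slc38a5 (-0.27), Slc43a2 (0.05) and Slc7a6 (-0.12). Normexp adds its offset of 50 to every signal before the log2 step. By construction this shrinks log2 differences between unscaled signals, most of all in dim probes. The 75th percentile is subtracted after that step, and the scaled differences did not shrink in every member. Those of Slc3a2 (1.90), Slc7a1 (1.09) and Slc1a6 (-0.40) were larger in size with normexp, while others, such as that of Slc7a4 (3.10), were smaller. How the turned directions arose was not tested. In the series table, with fewer genes tested (8312, of them 22 transporters), 5817 genes passed and 6 transporters were lower. Slide row 1 alone, with fewer mice, gave 7 higher and 6 lower and turned Slc1a3 (0.052) and Slc7a6os (-0.0013). Row 2 alone gave 7 higher and 7 lower and turned Slc1a6 (0.073). The row as a block gave 9 higher and 11 lower. Without any 1 mouse, 8532 to 8923 genes passed, 8 to 10 transporters were higher and 10 to 11 lower, and the shift of the 75th percentile against the spike-ins was 0.54 to 0.81. That shift was 0.54 to 0.76 where its exact p was 0.057. Directions turned for Slc1a3 (-0.61 to 0.093), Slc1a6 (-0.49 to 0.053), Slc43a2 (-0.12 to 0.0096) and Slc7a6 (-0.016 to 0.13). Where no construction is named, the cause was not tested. Quantile normalization, median centring, outlier spots kept, probe means, intensity trend and array weights kept the direction and call of all 31 members.

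Replicate numbers are shared between groups. Deviations of same-numbered mice from their group means correlated at 0.057, 0.12, 0.068 and 0.053, and every mouse correlated best with its own number, a hint from the data and not from the design. With the replicate block 8960 genes passed, 9 transporters were higher and 12 lower, among them Slc38a11 (adjusted p = 0.020) and Slc38a6 (adjusted p = 0.048), which did not pass without it. Members well above background on fewer than 4 arrays of a group (Slc1a6, Slc36a1, Slc38a5, Slc38a10, Slc7a2 and Slc7a4) have differences limited by signal over background.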
